A study of Homo sapiens with 8 samples.

Results

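The PD-1 ligand genes and 4 T cell chemokine genes were examined for occupancy by LSD1 in MDA-MB-231 cells with and without RCOR2. The 6 genes were CD274, PDCD1LG2, CXCL9, CXCL10, CXCL11 and CCL5, taken because they have been reported to rise when LSD1 is inhibited. Each gene was given a window of its own length with about 10 kb on either side, and CXCL9, CXCL10 and CXCL11 shared a window because they lie next to each other. The shared window was 25.2 kb longer than the RefSeq span of its genes, and the others were 20.2 to 21.1 kb longer. The 4 windows held 8 of the 47354 and 9 of the 54467 LSD1 summits of parental replicates 1 and 2, and 8 of the 49586 and 11 of the 50119 of KO1 replicates 1 and 2. A summit is the base of highest signal in a peak. Summits of any list no more than 500 bp apart were joined into a region, which gave 12 regions in the windows among 68148 in the genome.

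MDA-MB-231 is a human breast cancer cell line. The groups were parental cells and RCOR2-KO1 cells, in which the RCOR2 gene had been disrupted with CRISPR/Cas9, with 2 anti-LSD1 CUT&RUN libraries each. In CUT&RUN, a nuclease is led by an antibody to its target on chromatin and the DNA it releases is sequenced. The study's methods say that knockout clones were mixed for later work. That passage first names MDA-MB-231 among other lines and then describes MC38 cells. It does not state whether the mixing holds for the KO1 cells used here. Summit lists hold no expression and no RCOR2 signal, so neither the knockout nor the cell line label could be checked in them, and the 4 matching libraries with normal rabbit IgG were not analysed here as separate lists.

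LSD1, encoded by KDM1A, is a histone demethylase that removes methyl groups from lysine 4 of histone H3 and works with a CoREST scaffold, of which RCOR2 is a member. CD274 encodes PD-L1 and PDCD1LG2 encodes PD-L2, and both proteins bind PD-1 on T cells and dampen their response. CXCL9, CXCL10 and CXCL11 are ligands of CXCR3 that draw activated T cells into tissue, and CCL5 is a chemokine that attracts T cells and monocytes. CD274 and the CXCR3 ligands are induced by interferon, which acts on promoters through GAS and ISRE elements.

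The promoters of 4 of the 6 genes were found in RefSeq and are shown because they differ in CpG content and in their matches to motifs known from interferon-induced genes. They are the 250 bases before the annotated start in build GRCh38.p14, at chr9:5450292-5450541 on the plus strand for CD274 and, on the minus strand, at chr4:76007510-76007759 for CXCL9, chr4:76023498-76023747 for CXCL10 and chr4:76036071-76036320 for CXCL11. These positions are of another build than the LSD1 summits and cannot be set against them. Capitals mark matches on either strand to a GAS core (TTCNNNGAA), an ISRE core (GAAANNGAA), a TATA box (TATAAA), a GC box (GGGCGG) or an NF-kB site. PDCD1LG2 and CCL5 are named without a sequence.
CD274: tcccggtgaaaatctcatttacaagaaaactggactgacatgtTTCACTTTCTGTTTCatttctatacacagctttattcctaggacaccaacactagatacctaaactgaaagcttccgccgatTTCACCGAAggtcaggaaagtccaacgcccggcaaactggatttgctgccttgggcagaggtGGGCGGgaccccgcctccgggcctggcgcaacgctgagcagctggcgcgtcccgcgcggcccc
CXCL9: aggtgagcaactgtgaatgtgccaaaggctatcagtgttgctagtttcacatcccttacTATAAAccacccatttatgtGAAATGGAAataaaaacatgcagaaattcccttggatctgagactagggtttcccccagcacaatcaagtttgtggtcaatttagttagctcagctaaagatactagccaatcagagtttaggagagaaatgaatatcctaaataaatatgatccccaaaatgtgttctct
CXCL10: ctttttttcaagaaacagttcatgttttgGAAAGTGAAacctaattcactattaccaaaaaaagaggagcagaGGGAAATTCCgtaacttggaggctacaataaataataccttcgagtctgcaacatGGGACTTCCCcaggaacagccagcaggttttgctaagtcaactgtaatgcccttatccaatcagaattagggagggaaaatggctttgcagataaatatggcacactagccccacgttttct
CXCL11: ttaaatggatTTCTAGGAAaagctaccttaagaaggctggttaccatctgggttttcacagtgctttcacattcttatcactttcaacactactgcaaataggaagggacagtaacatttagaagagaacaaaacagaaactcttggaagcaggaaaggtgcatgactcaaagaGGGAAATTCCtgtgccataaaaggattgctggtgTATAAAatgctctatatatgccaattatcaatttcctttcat

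The CD274 promoter held 16 CpG dinucleotides and 54.8% G or C, beside medians of 11 and 58.0% over 35116 RefSeq promoters cut in the same way. CXCL9 and CXCL11 held 0 CpG and CXCL10 held 3, with 38.4%, 37.2% and 40.8% G or C, respectively. The CD274 sequence matched the GAS core from 125 to 117 bases before the start, the GC box from 63 to 58, and the ISRE core at a pair of overlapping places on the minus strand, from 207 to 199 and from 201 to 193. CXCL10 matched the ISRE core from 221 to 213 and the NF-kB site from 177 to 168 and from 122 to 113. CXCL9 matched the ISRE core from 171 to 163 and the TATA box from 191 to 186, and CXCL11 matched the GAS core from 240 to 232, the NF-kB site from 76 to 67 and the TATA box from 42 to 37. Of all promoters, 6.57% matched the GAS core, 6.88% the ISRE core, 10.7% the TATA box, 42.6% the GC box and 9.96% the NF-kB site. A match is a string of letters and was not tested for binding.

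LSD1 summits lay at both PD-1 ligand genes in every library and were all but missing at the chemokine genes. The CD274 window held 4 and 5 summits in the parental lists and 4 and 5 in the KO1 lists, replicate 1 first. The PDCD1LG2 window held 4, 4, 4 and 5 in the same order. The window of the CXCR3 ligands held 0, 0, 0 and 1, and the CCL5 window held 0 in each of the 4 lists. Of the 12 regions, 7 were in all 4 lists, 1 was in 3, 2 were in 2 and 2 were in 1. Over the genome 52.6% of regions were in all 4 lists, so the share in the windows was near that of the genome. All 7 shared regions belonged to the PD-1 ligands, with 4 in the CD274 window and 3 in the PDCD1LG2 window.

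The number of summits in the windows averaged 8.50 ± 0.707 for the parental and 9.50 ± 2.12 for the KO1 libraries (SD, n = 2 per genotype, as in all means below), a difference of 1 that was within the spread of the KO1 libraries (exact permutation test, two-sided, p = 1). With 2 libraries against 2, this test cannot give a p below 0.333, so no difference between the genotypes could pass the threshold. The difference became -0.5 without KO1 replicate 2, and also with the upper 50% of each list alone.

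**Figure D1:**
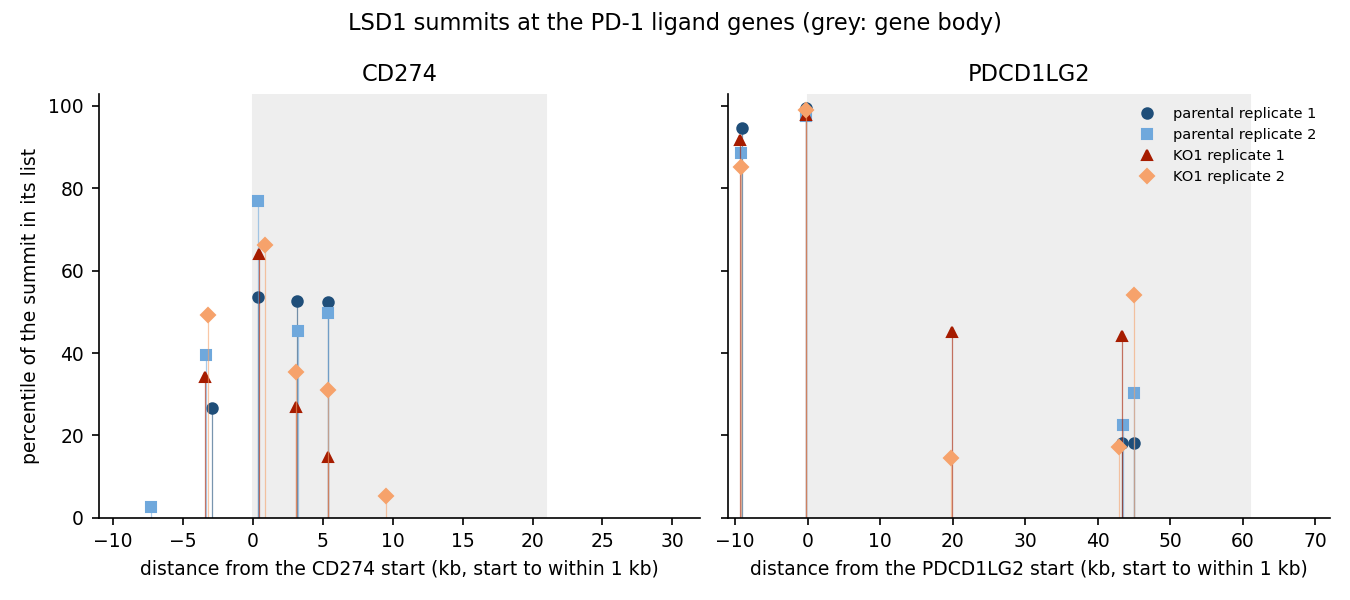
LSD1 summits of each library in the CD274 window (left) and the PDCD1LG2 window (right), with the distance from the gene start in kb on the horizontal axis and the percentile of the summit within its own list on the vertical axis. Grey marks the gene body. Each of the 4 libraries has a summit at the start of CD274, with that of KO1 replicate 2 apart from the others. Just before PDCD1LG2 the summits stack, and all 4 lie between 97.5 and 99.5. The points 3 and 5 kb inside CD274 are lower in both KO1 libraries than in both parental libraries.

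Each summit carries a −log10 of a p or q value, which depends on the depth of its library, and was therefore ranked within its list. A percentile of 90 means that 90% of the summits in that list had the same or a lower value. Positions of summits are given in build hg19. Gene starts were taken as 10 kb inside the window and are known to within 1 kb, since the windows are given in whole kb. Both ligand genes read towards higher coordinates, with CD274 first.

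The strongest LSD1 region of the 6 genes lay at the start of PDCD1LG2. Its summits fell at chr9:5509729-5509827, at most about 1 kb before the gene. The region was at percentiles 99.5 and 97.5 in the parental lists and 97.8 and 99.0 in the KO1 lists, with −log10 values of 133, 111, 104 and 108. By its mean over the 4 lists it ranked 446 among the 35861 regions found in all 4 lists. The genotypes overlapped, at 98.5 ± 1.41 in parental and 98.4 ± 0.860 in KO1 cells, and the difference of -0.165 was smaller than the spread of either pair (exact permutation test, p = 1).

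A second strong region lay 9 kb before PDCD1LG2, at chr9:5500713-5500889. Its percentiles were 94.7 and 88.6 in parental cells and 91.6 and 85.2 in KO1 cells, so the genotypes overlapped. The difference was -3.24 (91.7 ± 4.30 against 88.4 ± 4.53, exact permutation test, p = 0.667).

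Inside PDCD1LG2 the regions were weaker and less regular. A region 43 kb from the start, at chr9:5552910-5553475, was at 18.1 and 22.6 in parental cells and at 44.2 and 17.3 in KO1 cells. Its difference of 10.4 rested on KO1 replicate 1 and was -3.04 without that library (20.4 ± 3.16 against 30.7 ± 19.0, exact permutation test, p = 1). A region 45 kb from the start, at chr9:5555034-5555059, was found at 18.1 and 30.3 in the parental lists and at 54.1 in KO1 replicate 2, and was not in the list of KO1 replicate 1. A region 20 kb from the start, at chr9:5529791-5529912, was in both KO1 lists, at 45.0 and 14.5, and in no parental list. It was the single region of the windows found in both lists of 1 genotype and neither of the other, and there was none of the reverse kind. Among regions of the genome found in both lists of at least 1 genotype, 4.99% were in KO1 cells alone and 5.84% in parental cells alone.

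At CD274, the gene of PD-L1, the genotypes overlapped in the rank of LSD1 at the start, while the shared regions 3 and 5 kb inside the gene ranked lower in both KO1 libraries than in both parental libraries. The region at the start, at chr9:5450414-5450908, was at 53.7 and 76.9 in parental cells and at 64.0 and 66.3 in KO1 cells. Both KO1 values lay between the parental values, and the means were 65.3 ± 16.4 and 65.2 ± 1.64 (exact permutation test, p = 1). The difference of -0.110 was -11.7 without parental replicate 1, 11.5 without parental replicate 2 and 1.05 without KO1 replicate 1. The summit of KO1 replicate 2 in this region stood apart, at base 5450908, while the others lay from 5450414 to 5450454.

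The region 3 kb inside CD274, at chr9:5453109-5453217, was at 52.7 and 45.4 in parental cells and at 26.9 and 35.3 in KO1 cells. The region 5 kb inside, at chr9:5455364-5455413, was at 52.3 and 49.6 in parental cells and at 14.8 and 31.1 in KO1 cells, and its −log10 values were 18.6 and 18.4 against 6.0 and 9.58. At both regions the higher KO1 library was below the lower parental library. The parental and KO1 means of the first were 49.1 ± 5.19 and 31.1 ± 5.92, a difference of -17.9, and those of the second 50.9 ± 1.93 and 22.9 ± 11.6, a difference of -28.0 (exact permutation test, p = 0.333 for each, the smallest this design can give). Leaving out each library in turn gave -22.1 to -13.7 for the first and -36.2 to -19.8 for the second. Neither region was in all 4 lists when the lists were cut to their upper 50%.

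**Figure D2:**
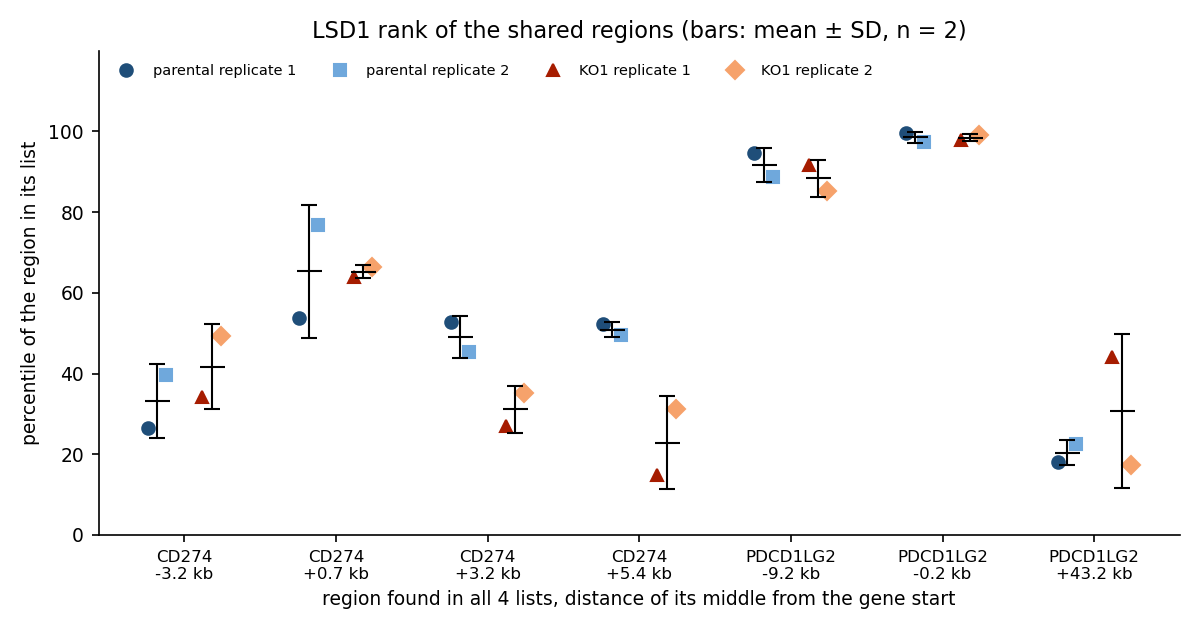
Percentile of the 7 regions found in all 4 lists (vertical axis) by library, with the gene and the distance of the region's middle from the gene start along the horizontal axis. Black bars give the mean and SD of the 2 libraries of each genotype. The genotypes separate at the regions 3.2 and 5.4 kb inside CD274 and overlap at the other 5.

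Such separation is common in these lists. Both KO1 libraries ranked below both parental libraries at 2 of the 7 shared regions, beside 22.4% of the 35861 shared regions of the genome, a share near that background. The reverse was seen at 0 of 7, beside 19.6%. By size, 10.7% of the shared regions of the genome had a difference as low as that of the region 3 kb inside CD274, and 3.32% as low as that of the region 5 kb inside. Differences were widest at middle ranks, with 5th and 95th percentiles of -30.9 and 30.5 over the 10342 shared regions with a mean percentile of 25 to 50, the class to which both regions belong.

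Before CD274, the region 3 kb ahead of the start, at chr9:5446606-5447092, was at 26.6 and 39.6 in parental cells and at 34.3 and 49.2 in KO1 cells. These values overlapped, with a difference of 8.66 (33.1 ± 9.15 against 41.7 ± 10.5, exact permutation test, p = 0.667). The remaining regions were weak summits of a single library. One, at base 5442726, was at percentile 2.56 in parental replicate 2, and the other, at base 5459559 and thus inside the gene, was at 5.36 in KO1 replicate 2.

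Over the 7 shared regions together, the mean percentile was 56.8 and 60.0 in the parental libraries and 53.4 and 54.8 in the KO1 libraries. The means of 58.4 ± 2.27 and 54.1 ± 1.0 differed by -4.34 (exact permutation test, p = 0.333), and the median difference was -0.165, beside -0.578 over all shared regions of the genome. Over the same 7 regions the mean difference ran from -5.95 to -2.74 when any 1 library was dropped. Without KO1 replicate 1 the remaining lists shared 8 regions, the added one being that 45 kb inside PDCD1LG2, and the mean over these 8 was 0.554. The mean also moved with the set of regions. It was -12.3 over the 4 regions left with a joining distance of 250 bp. It was -8.91 over the 4 in windows 10 kb narrower and -0.249 over the 14 in windows 10 kb wider. The narrower windows left out both strong regions, at the start of PDCD1LG2 and 9 kb before it, and the region 3 kb before CD274. The 4 CD274 regions gave 49.6 ± 4.61 against 40.3 ± 7.41, parental first, a difference of -9.34 with p = 0.333 in the exact permutation test. The 3 PDCD1LG2 regions gave 70.2 ± 0.852 and 72.5 ± 7.55, a difference of 2.33 with p = 1 in the same exact test. Whether the genes differed from each other in this respect was not tested.

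**Figure D3:**
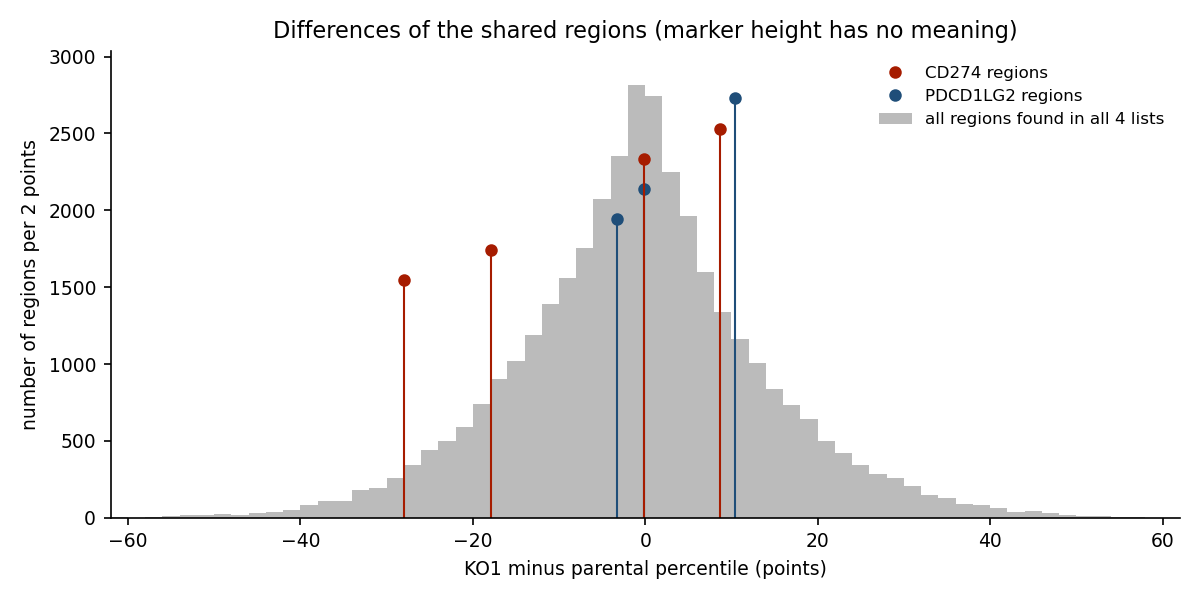
Number of regions (vertical axis) by the KO1 minus parental difference in percentile (horizontal axis, bins of 2 points) over the 35861 regions found in all 4 lists, with the 4 CD274 and 3 PDCD1LG2 regions as coloured lines whose height has no meaning. A pair of CD274 regions lies in the lower tail, at -17.9 and -28.0, and the other 5 lie between -3.24 and 10.4.

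The CD274 window was dense in LSD1 regions. It held 9.76 shared regions per 100 kb and the PDCD1LG2 window held 3.70, beside 1.01 on chromosome 9 and 1.23 in the genome. When the genome was cut into tiles of 41 kb, 1.60% held at least 4 shared regions, as the CD274 window did, and 13.9% of tiles of 81 kb held at least 3, as the PDCD1LG2 window did. Tiles cover stretches with and without genes, whereas every window was placed on a gene. The density of the windows also depends on the joining distance. With 250 bp, 4 shared regions were left in the windows. Those lost were the region at the start of CD274, the one before it, and the one 43 kb inside PDCD1LG2. Outside the windows, the nearest shared region before CD274, at chr9:5437395-5437985, was at 86.1, 89.2, 81.7 and 63.9 in the order of the libraries above, and a weak one between the ligand genes, at chr9:5493760-5494267, was at 22.2, 31.7, 25.6 and 27.8. Within 5 Mb of CD274, with the regions of both ligand windows included, the median difference of 66 shared regions was -2.96. Both KO1 libraries were lower at 31.8% of them and higher at 19.7%, beside 22.4% and 19.6% over the genome. A negative median was not particular to CD274. Within 5 Mb of the CXCR3 ligand and CCL5 windows it was -2.01 and -3.70, beside -0.578 over the genome. The part of the CD274 surroundings in the lower values inside CD274 was not tested.

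At the CXCR3 ligands no LSD1 region was found in both lists of a genotype. The single summit of the window, in KO1 replicate 2 at base 76912092 of chromosome 4, was at percentile 18.8 and lay at the very edge of the window. It joined a summit of parental replicate 2, 124 bp away and outside the window, at percentile 19.5. From there no list had a summit for 60.7 kb, up to chr4:76972750-76972785 on the far side of the window, where all 4 lists had one at 66.1, 87.9, 74.5 and 86.5. On the near side, a shared region at chr4:76906461-76906490 was at 76.3, 82.9, 91.6 and 84.0. In RefSeq the neighbours of the cluster are SDAD1 and NUP54, and ART3 overlaps CXCL10 and CXCL11. The stretch over CXCL9, CXCL10 and CXCL11 was thus bounded by regions of upper rank, 5.51 kb and 0.750 kb outside the window.

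CCL5 lay in a longer stretch with no summit in any list. The nearest region before it, at chr17:34136274-34136280, was 51.7 kb outside the window and was strong, at 88.2, 98.6, 91.1 and 88.0. The nearest after it, at chr17:34842402-34842451, was 624 kb away and weak, at 22.2, 36.7, 10.9 and 31.1. The stretch between them was 706 kb long, and 292 of the 197499 intervals between neighbouring summits were as long, or 0.148%. For the chemokine cluster this share was 5.54%, and the median interval was 0.0730 kb because summits of the 4 lists fall together. Most intervals thus lie between summits of the same region. Long intervals also cover more of the genome than short ones, so these shares do not say how often a gene falls in such a stretch.

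**Figure D4:**
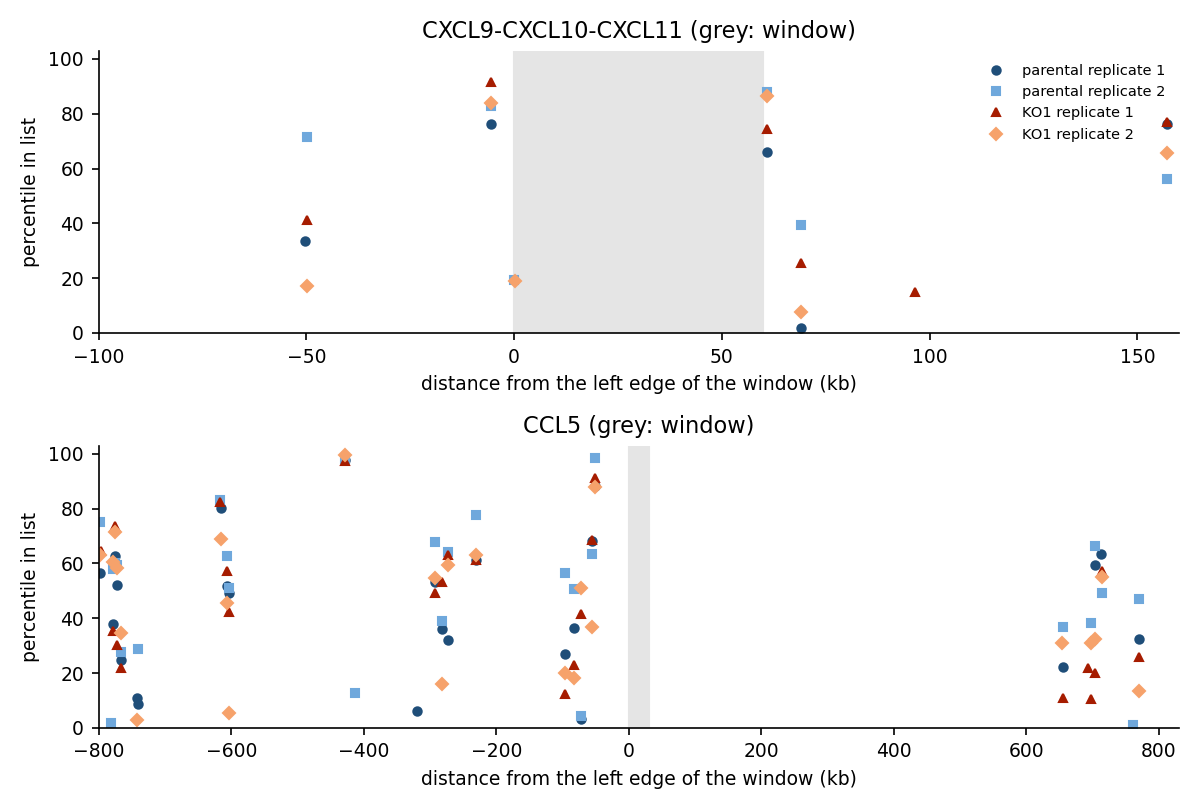
LSD1 summits by library around the window of CXCL9, CXCL10 and CXCL11 (top) and around that of CCL5 (bottom), with the distance from the left edge of the window in kb on the horizontal axis and the percentile within the list on the vertical axis. Grey marks the windows, which hold 1 summit at the edge of the first and 0 in the second.

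Absence of a shared region from a window of this size was not unusual. Of tiles of 60 kb, 61.2% held no shared region, and of tiles of 30 kb, 74.7% held none. Tiles with no summit in any list, as in the CCL5 window, were not counted. These tiles, too, cover stretches with and without genes. The lists contain peaks that passed the authors' caller, with lowest −log10 values of 1.31 to 1.40, so weaker occupancy at the chemokine genes was not detectable in them, and the genotypes could not be compared there. The depth of the libraries is unknown.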

How the data were processed

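The authors performed CUT&RUN with anti-LSD1 antibody in MDA-MB-231 cells, with 2 libraries from the parental line and 2 from its RCOR2-KO1 derivative, and called peaks per library with normal rabbit IgG as input. Per the submitters' processing notes, the tools were FastQC 0.11.2, Bowtie2 2.3.3.1, Picard and MACS2 2.1.0, and the build was hg19. The deposited lists hold 1 summit per peak with its −log10 of a p-value or q-value, and which of these it is, the peak width and the depth are not given in the sources used here. A −log10 value rises with depth, so summits were ranked within each list.

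Analysis used numpy 2.4.6 and pandas 2.3.3 in Python 3.11.15. Autosomal and X-linked summits were joined at a distance of up to 500 bp, and the highest summit gave the percentile of a region in a library. The test between genotypes was an exact, two-sided permutation test in scipy 1.17.1. The study's methods say that CUT&RUN was repeated, without stating whether the cultures were separate, so p-values measure only the spread between these libraries, which may be technical. The steps were tested on simulated lists with known differences. Those lists had little noise and well separated regions, so they check the code and not the spread of the real lists. The named genes were the 6 members, and every region of their windows is given. Members and windows were chosen with earlier results of these data known. RefSeq (GRCh38.p14) gave promoters and the order of neighbouring genes, and none of its coordinates were set against summits. Alternatives were joining distances of 250 and 1000 bp, lists cut to the shortest, the upper 50% of each list, windows 10 kb narrower or wider, percentiles over shared regions, a replicate block and each library left out in turn; leaving out a library while keeping the same 7 regions was added after seeing the data.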

Additional observations from a re-analysis of the deposited data

How the results depend on the processing

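Under the alternatives that kept all 4 libraries, the difference of each shared region kept its direction in all 35 values that could be had. Another 7 could not be had because a region was split or left the shorter lists. The replicate block must return the main difference by arithmetic. The values had with joining distances of 250 and 1000 bp were the same as the main ones. These values are therefore not further checks of direction. The number of regions found in all 4 lists was 7, and became 4 with a joining distance of 250 bp, 3 with the upper 50% of each list, and 4 or 14 with windows 10 kb narrower or wider on each side. With the upper 50%, the region in KO1 cells alone was lost (0) and the KO1 minus parental number of summits was -0.5. The mean difference of -4.34 was -12.3 with 250 bp, and -8.91 and -0.249 with narrower and wider windows. With the upper 50% it was -2.34 over 3 regions. Percentiles were taken anew there within the shortened lists, which widens a difference. That of the region 9 kb before PDCD1LG2 went from -3.24 to -6.47. The value of -2.34 is thus not on the scale of -4.34. With 1 library left out, the regions in all remaining lists numbered 7 to 8, the mean difference over them ran from -5.95 to 0.554 (from -5.95 to -2.74 over the same 7 regions, an alternative chosen after seeing the data), the difference in summits from -0.5 to 2.50, the regions in KO1 cells alone from 1 to 2 and those in parental cells alone from 0 to 1. Of 28 single differences with 1 library left out, 23 kept their direction. The others were at the start of CD274 (range -11.7 to 11.5, and 1.05 without KO1 replicate 1), at the start of PDCD1LG2 (range -1.16 to 0.835, and 0.444 without KO1 replicate 1) and 43 kb inside PDCD1LG2 (range -3.04 to 23.8).

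The replicate block left the mean difference at -4.34, as it must by arithmetic with 2 libraries per genotype, and 2 pairs cannot give a p below 0.5. Nothing in the labels pairs equal replicate numbers, and the differences of replicate 1 from replicate 2 in parental and in KO1 cells had a Pearson r of 0.00722 over the 35861 shared regions. With 2 libraries per genotype no threshold could be passed, and ranks within a list cannot show a change of occupancy that is shared by all regions of a library.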

Other observations

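The rank of LSD1 at the start of CD274 relative to the regions inside it was compared within each library after the values had been seen, and no test was made. The mean percentile of the shared regions 3 and 5 kb inside the gene was 52.5 and 47.5 in parental cells and 20.8 and 33.2 in KO1 cells. The start exceeded this mean by 1.16 and 29.4 percentile points in the parental libraries and by 43.2 and 33.1 in the KO1 libraries. The parental libraries differed more from each other in this measure than parental replicate 2 did from either KO1 library. With a joining distance of 250 bp the region at the start was not found in all 4 lists.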
